A study of Homo sapiens with 12 samples.

Results

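The genes described here carry an MRPL or MRPS symbol, the symbols given to protein components of the mitochondrial ribosome. Whether each product is found in the ribosome was not checked. They were taken by symbol alone: MRPL (named for the large subunit) or MRPS (named for the small subunit), followed by a number and in some cases a letter from A to C. The rule found 78 genes, 49 MRPL and 29 MRPS, among the 60645 gene names listed. The rule itself uses no measured value. PolyA RNA was sequenced from HEK-293T, a human embryonic kidney line, in which ARID1A, a subunit of the SWI/SNF (BAF) chromatin remodeller, had been knocked out. All 6 groups carried this knockout and held 2 libraries each, 12 libraries in all. The first vector gave 3 states: empty (here "no ARID1A"), ARID1A WT, or ARID1A ΔIDR1b, which lacks the disordered region IDR1b. The second vector was either empty or EWS-FLI1, the fusion transcription factor of Ewing sarcoma (2 µg of plasmid, harvest after 48 h), so each state was measured with both. The series was designed around the part that IDR1b plays in transcription driven by EWS-FLI1. The labels do not say how many knockout clones were used, and ARID1A and EWS-FLI1 were supplied from vectors ("O/E" in the labels).

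Mitochondria keep a ribosome of their own, which translates the few messages of the mitochondrial genome into core subunits of the respiratory chain and ATP synthase. Its ribosomal RNAs are encoded in mitochondria, whereas every protein component is encoded in the nucleus, made in the cytosol and imported. Some components descend from bacterial ribosomal proteins and others were added during the evolution of mitochondria. The promoters of these genes are known for binding sites of NRF1, of ETS-family factors such as GABP, and of YY1. FLI1 is itself an ETS-family factor, and EWS-FLI1 is known to bind repeats of GGAA.

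Promoter sequence was available for 69 of the 78 genes, from RefSeq (GRCh38.p14), and covered 250 bases before to 50 bases after the start of each gene. Those of 5 genes described below are printed 5′ to 3′ on the strand of the gene. MRPL32, MRPS22 and MRPL46 were lower with ΔIDR1b, MRPS18A was higher with ΔIDR1b, and MRPL50 was higher with WT. They were not taken strictly by size of change: MRPS24, which changed more, is not printed. All 5 printed hold a match, whereas MRPS5, MRPL44 and MRPL19, also described below, hold none. Capitals mark exact matches to NRF1 (GCATGCGC), ETS (CCGGAAG) or YY1 (AAGATGGC) letters on either strand.
MRPL32 (chr7:42932126-42932425, plus strand): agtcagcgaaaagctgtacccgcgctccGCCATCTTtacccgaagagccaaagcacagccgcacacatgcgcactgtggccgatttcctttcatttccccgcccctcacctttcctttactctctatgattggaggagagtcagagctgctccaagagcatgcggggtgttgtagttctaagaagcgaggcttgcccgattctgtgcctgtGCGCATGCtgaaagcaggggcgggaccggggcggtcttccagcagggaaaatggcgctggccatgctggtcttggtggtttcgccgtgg
MRPS22 (chr3:139343744-139344043, plus strand): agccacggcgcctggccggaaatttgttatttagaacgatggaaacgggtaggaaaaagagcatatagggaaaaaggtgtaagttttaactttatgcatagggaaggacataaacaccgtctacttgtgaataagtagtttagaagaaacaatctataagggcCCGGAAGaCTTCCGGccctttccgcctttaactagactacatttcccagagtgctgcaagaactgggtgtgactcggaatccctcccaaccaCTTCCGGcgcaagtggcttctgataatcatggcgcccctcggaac
MRPL46 (chr15:88467339-88467638, minus strand): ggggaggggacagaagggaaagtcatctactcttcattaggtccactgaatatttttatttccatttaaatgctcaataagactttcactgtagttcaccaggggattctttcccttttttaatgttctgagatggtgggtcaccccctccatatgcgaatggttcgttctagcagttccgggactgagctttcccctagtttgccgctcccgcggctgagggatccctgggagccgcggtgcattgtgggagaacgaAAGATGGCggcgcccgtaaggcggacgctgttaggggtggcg
MRPS18A (chr6:43687742-43688041, minus strand): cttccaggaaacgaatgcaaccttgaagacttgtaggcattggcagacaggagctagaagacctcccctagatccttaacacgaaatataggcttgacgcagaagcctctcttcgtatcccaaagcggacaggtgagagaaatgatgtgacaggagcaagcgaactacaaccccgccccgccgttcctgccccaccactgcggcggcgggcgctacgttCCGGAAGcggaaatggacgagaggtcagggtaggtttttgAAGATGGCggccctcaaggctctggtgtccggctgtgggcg
MRPL50 (chr9:101398569-101398868, minus strand): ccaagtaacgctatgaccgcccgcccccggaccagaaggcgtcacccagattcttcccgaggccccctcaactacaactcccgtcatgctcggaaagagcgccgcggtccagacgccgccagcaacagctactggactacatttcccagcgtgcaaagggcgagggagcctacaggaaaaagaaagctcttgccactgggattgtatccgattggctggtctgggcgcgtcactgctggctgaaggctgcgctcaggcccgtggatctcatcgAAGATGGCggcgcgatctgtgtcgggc
MRPL32 holds a YY1 and an NRF1 match, MRPS22 holds 3 ETS matches, MRPL46 and MRPL50 each hold a YY1 match after the start (from position 8 and 23), and MRPS18A holds an ETS and a YY1 match. MRPL46 and MRPS11 lie head to head on opposite strands, and their promoter windows overlap.

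Across the family, the YY1 letters stood in 20 of 69 promoters (29%), against 3.0% of all 27305 promoters and 4.8% of those of genes tested. The ETS letters stood in 42.0%, against 10.7% and 17.3%. The NRF1 letters stood in 8.7%, against 3.3% and 5.1%. The GGAA repeat, searched as GGAAGGAA on both strands, stood in 3 promoters (4.3%), against 3.6% and 3.3%. The MRPL and MRPS promoters held the letters at like shares: YY1 in 28.6% and 29.6%, ETS in 40.5% and 44.4%, NRF1 in 9.5% and 7.4%. These are matches of letters in a window, not sites shown to be bound. The NRF1 letters of the 2 strands can overlap each other, as can an ETS match and a GGAA repeat.

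The libraries held 11702251 to 14445379 counts, of which the MRPL and MRPS genes took 0.34 to 0.406%. ARID1A stood at 147.4 to 164.5 CPM (normalised counts scaled to library size) in the knockout libraries without a rescue, 1843 to 2291 with WT and 2608 to 2878 with ΔIDR1b, so remaining transcript is detected in the knockout. FLI1 was at or under 0.1462 CPM without EWS-FLI1 and reached 1688 to 1906 with it, except in the WT libraries, where it was 3462 and 3675. Of the line's markers PAX2, LHX1, NEFL and VIM were detected in every library and NEFM had at most 1 count, while those of leukocytes (PTPRC, CD3E), endothelium (PECAM1) and heart (MYH6) had at most 3 counts and that of liver (ALB) at most 12. The first library with WT and the empty vector stood apart: the median gene of the family was 0.242 above its own mean on the log2 scale, against 0.051 in its partner. Nothing in the labels says that the repeats came from separate cultures, so the p-values measure the spread between these libraries, which may be technical. The values are shares of bulk RNA, so fewer cells with a high level and a lower level in each cell cannot be told apart.

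**Figure D1:**
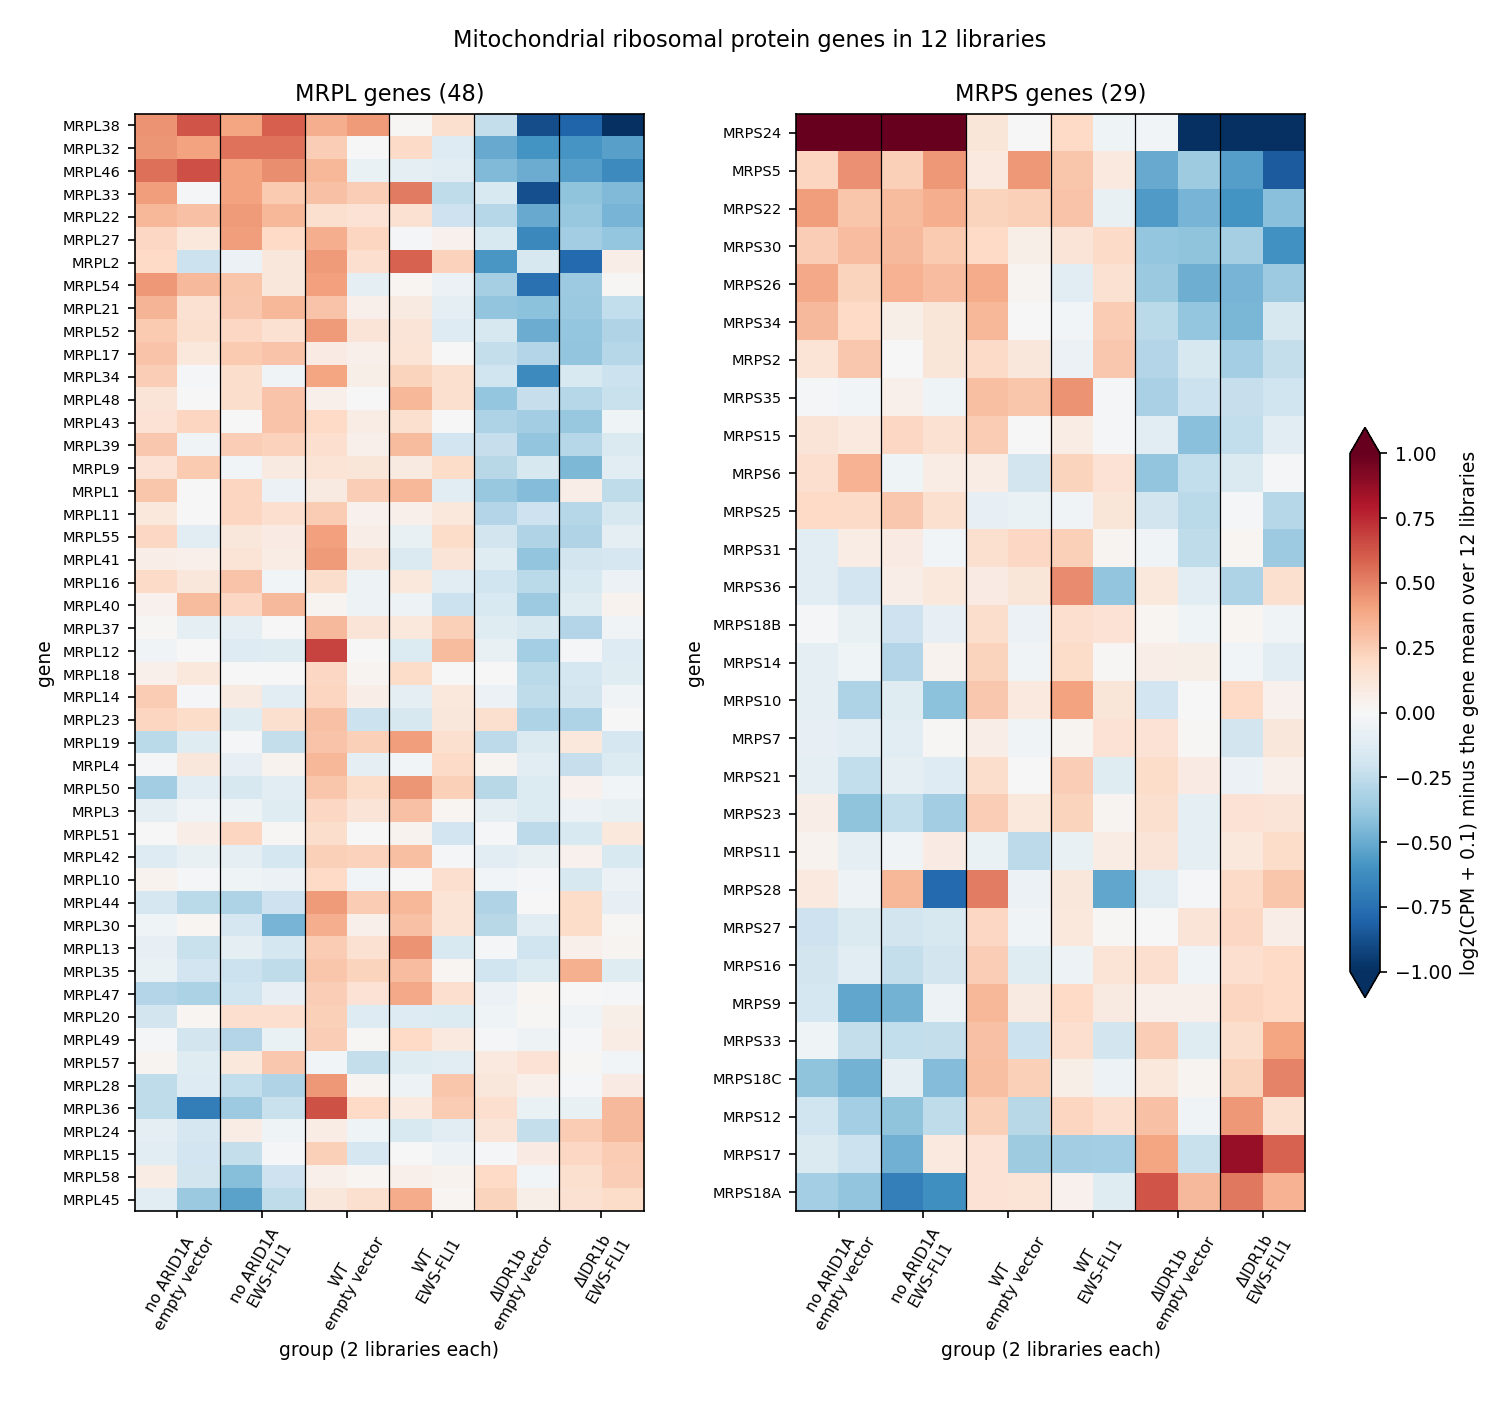
Level of each of the 77 genes tested (rows; 48 MRPL on the left, 29 MRPS on the right) in each of the 12 libraries (columns, 2 per group), as log2(CPM + 0.1) minus the gene's mean over the libraries; red is above and blue below the mean, and colours saturate at 1. MRPL32, MRPL46, MRPS22, MRPS26 and MRPS30, near the top, are blue in all 4 ΔIDR1b libraries, and MRPS18A, in the lowest row, is blue in the 4 libraries without ARID1A.

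In FPKM, the normalised count divided by exonic length in kilobases, MRPL37 was the highest of the family at 120.4 (range 97.8 to 149 over the 12 libraries), followed by MRPS26 at 116.3 (80.6 to 147) and MRPS34 at 100.2 (72 to 125). The ranges of these 3 overlapped. The lowest of the genes tested were MRPS24 at 1.008 (0.0267 to 2.65), MRPS18C at 2.011 (1.41 to 2.79) and MRPL46 at 2.188 (1.34 to 3.27). MRPL37, MRPS26 and MRPS34 are components that bacteria lack, and MRPS18C is one of the human relatives of bacterial S18. The exon lengths are unions over all transcripts and are long for some members, 16385 bases for MRPS22 for example, so levels per length are understated there. Levels are also understated where exons are shared with other gene names, since such fragments were not counted. This holds for 92.2% of the coding bases of MRPS24 and 65.6% of those of MRPL46, so their low places do not show low abundance.

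**Figure D2:**
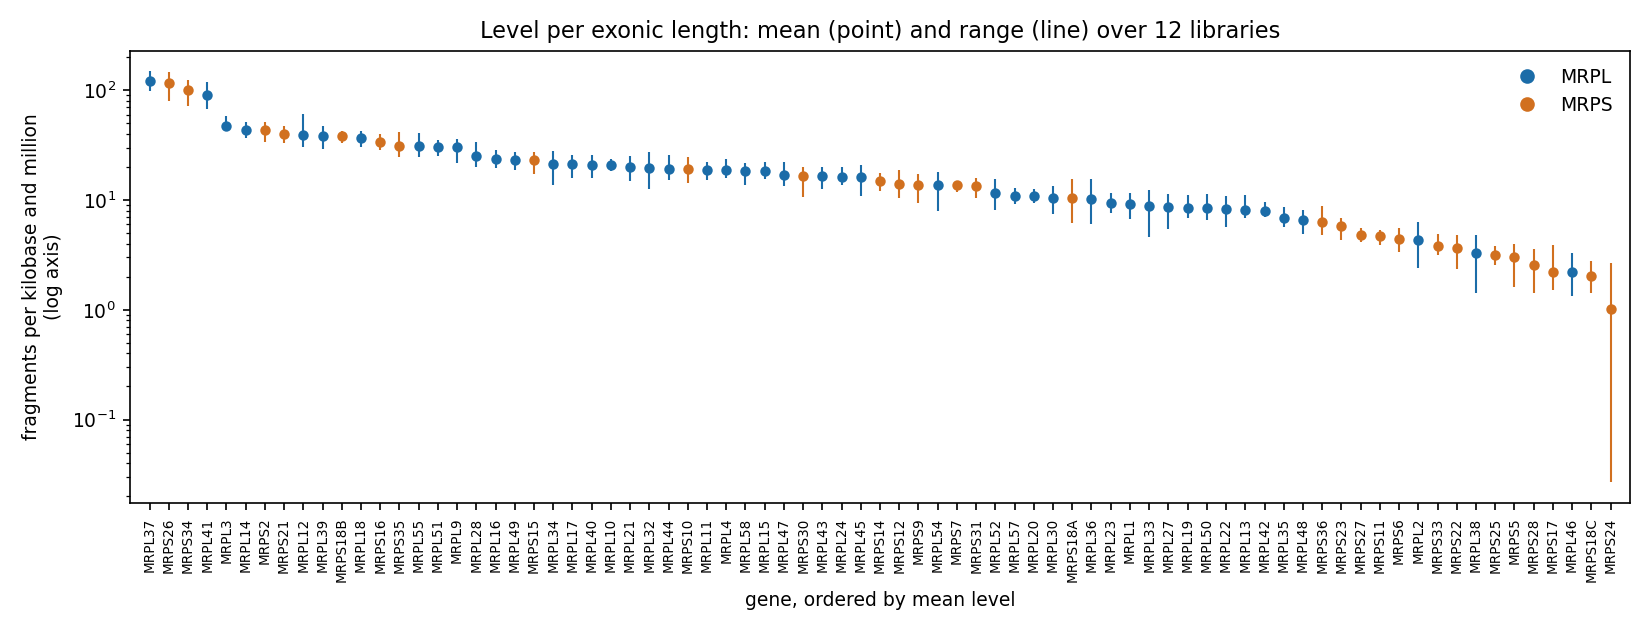
Level per exonic length (y axis, log scale, FPKM) of the 77 genes detected, ordered by mean; points are means and lines the range over 12 libraries. Levels run from 120.4 for MRPL37 to 1.008 for MRPS24, and MRPL and MRPS genes are mixed along the order.

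A fragment that overlapped exons of more than 1 gene name was not counted. MRPL53, a large-subunit component without a bacterial relative, had 0 counts in all 12 libraries, and 100% of its coding bases lie in exons of other gene names; it was not tested. The other 77 genes passed the filter on low counts (48 MRPL and 29 MRPS). For 11 of the 78 genes over 50% of the coding bases were shared in this way: MRPL53, MRPS17 (100%), MRPL12 (96.0%), MRPS5 (95.5%), MRPL30 (95.3%), MRPL38 (94.1%), MRPS24 (92.2%), MRPS25 (78.6%), MRPL2 (69.4%), MRPL46 (65.6%) and MRPS28 (53.7%). Their values rest on the remaining exon bases. Counts without the 10 tested genes of this kind are given beside the main ones; that choice was made after the values were seen. MRPS31 and MRPL45 have pseudogenes that took 1105 and 919 counts over the 12 libraries, against 4628 and 4450 for the genes themselves, so their values are uncertain.

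The first comparison asked how the family differed between ΔIDR1b and no ARID1A. By edgeR's quasi-likelihood test with p-values adjusted over all genes by Benjamini-Hochberg (threshold 0.05), 28 of the 77 genes were lower with ΔIDR1b and 1 was higher under the empty vector, where among all 20377 genes tested 16.8% were lower and 16.4% higher. With EWS-FLI1, 22 were lower and 13 higher, against 17.9% and 18.1% of all genes. The median log2 fold change of the family was -0.167 under the empty vector and -0.142 with EWS-FLI1, against 0.004 and 0.016 for all genes. Under the alternative settings the family median ran from -0.179 to -0.049 and from -0.179 to -0.025, so its size depended on the setting. The pair of comparisons shares no library, and 21 genes were lower in both (75.0% of the 28 and 95.5% of the 22). The share of all genes lower in both was not computed, so this overlap is not shown to be particular to the family. These were MRPL17, MRPL21, MRPL22, MRPL27, MRPL32, MRPL33, MRPL38, MRPL39, MRPL43, MRPL46, MRPL48 and MRPL52, and MRPS2, MRPS5, MRPS15, MRPS22, MRPS24, MRPS25, MRPS26, MRPS30 and MRPS34. MRPS18A alone was higher in both. Over the 77 genes the log2 fold changes of the pair had a Pearson r of 0.93 (Spearman 0.90), a description across genes, which are not independent replicates. The same r over all genes tested was not computed.

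MRPL32, the counterpart of bacterial L32, is known for being cut by the m-AAA protease after import, a step that ribosome assembly waits for. Its level was 86.01 and 83.61 CPM in the libraries without ARID1A and under the empty vector, and 44.74 and 41.82 with ΔIDR1b. With EWS-FLI1 it was 92.23 and 92.55 without ARID1A and 42.19 and 43.58 with ΔIDR1b. The 4 ΔIDR1b libraries lay below all 8 others, and the fall was -0.97 ± 0.12 (log2 fold change ± SE, adjusted p = 1.52e-07) under the empty vector and -1.11 ± 0.12 (adjusted p = 1.07e-08) with EWS-FLI1. WT libraries lay between, from 58.07 to 75.07 CPM, and no coding base of MRPL32 is shared with another gene name.

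MRPS22, a small-subunit component that bacteria lack and in which inherited mutations cause respiratory chain deficiency, was 78.06 and 70.75 CPM without ARID1A and 39.4 and 42.46 with ΔIDR1b under the empty vector. Under EWS-FLI1 it was 72.8 and 75.35 against 38.65 and 43.86. The ΔIDR1b libraries were again below the other 8, with log2 fold changes of -0.86 ± 0.12 (adjusted p = 1.89e-06) and -0.84 ± 0.13 (adjusted p = 2.46e-06). Of the coding bases of MRPS22 17.9% are shared with COPB2, and of all its exonic bases 42.8% are shared with other gene names. MRPL46, a component of the central protuberance of the large subunit, was 19.63 and 20.94 CPM without ARID1A and 9.796 and 9.436 with ΔIDR1b, and 17.65 and 18.49 against 9.06 and 8.55 with EWS-FLI1. It fell, with log2 fold changes of -1.08 ± 0.18 (adjusted p = 2.27e-05) and -1.04 ± 0.19 (adjusted p = 4.42e-05). MRPS11, which shares its promoter region with MRPL46, was at 27.21 and 24.9 CPM without ARID1A and 29.02 and 24.95 with ΔIDR1b, and did not pass the test with either vector (adjusted p = 0.83 and 0.55).

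MRPL38, which also sits at the central protuberance, was 14.05 and 15.93 CPM without ARID1A and 8.7 and 5.504 with ΔIDR1b, and 13.55 and 15.64 against 5.875 and 4.727 with EWS-FLI1. The log2 fold changes were -1.08 ± 0.21 (adjusted p = 0.00018) and -1.46 ± 0.22 (adjusted p = 3.64e-06). MRPS5, the counterpart of bacterial S5 near the messenger RNA entry, was 46.17 and 54.59 CPM against 28 and 31.1, and 46.88 and 53.92 against 27.11 and 22.38 with EWS-FLI1 (-0.77 ± 0.14 and -1.03 ± 0.15, adjusted p = 7.69e-05 and 1.08e-06). For both genes every ΔIDR1b library was below every other library, and for both over 90% of coding bases were among those not counted.

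MRPS24, the counterpart of bacterial S3, had the lowest counted level per length of the members tested and the largest fold change of the family. It had 68 and 81 counts without ARID1A and 21 and 3 with ΔIDR1b, and 81 and 54 against 6 and 1 with EWS-FLI1. The fitted log2 fold changes were -2.66 ± 0.50 (adjusted p = 8.44e-05) and -4.51 ± 0.61 (adjusted p = 4.25e-07). Its WT libraries held 20 to 24 counts, so the groups without ARID1A were above all other libraries, whereas the first ΔIDR1b library under the empty vector overlapped the WT libraries. The readthrough gene URGCP-MRPS24 covers 92.2% of the coding bases of MRPS24 and itself had at most 2 counts in a library.

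MRPL22, MRPS26 and MRPS30 share no coding base with another gene name and were chosen for that after their values were seen. MRPL22, the counterpart of bacterial L22, which lines the peptide exit tunnel, was 52.5 to 57.62 CPM in the 4 libraries without ARID1A and 30.17 to 35.16 in the 4 with ΔIDR1b. MRPS26, which bacteria lack, was 134.8 to 149.6 CPM against 81.92 to 89.32. MRPS30, a large-subunit component despite its symbol, was 118.6 to 125.1 CPM against 65.69 to 79.27. The log2 fold changes of the 3 genes ran from -0.67 to -0.73 under the empty vector and from -0.74 to -0.80 with EWS-FLI1, with SEs of 0.11 to 0.13. For each of the 3 genes the ΔIDR1b libraries were below the 8 others.

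MRPS18A moved the other way. It is another relative of bacterial S18, sits in the large subunit despite its symbol, and has 24.1% of its coding bases shared with RSPH9. Of all its exonic bases 50.9% are shared with RSPH9. Its level was 10.85 and 10.47 CPM without ARID1A and 21.42 and 17.3 with ΔIDR1b, and 8.524 and 8.987 against 19.89 and 17.52 with EWS-FLI1. The log2 fold changes were 0.86 ± 0.18 (adjusted p = 0.000357) and 1.09 ± 0.19 (adjusted p = 2.08e-05). WT libraries held 12.66 to 15.25 CPM, so the 3 states did not overlap. The other 12 genes that were higher with ΔIDR1b under EWS-FLI1 had log2 fold changes from 0.31 (MRPS27) to 0.92 (MRPS17). Among them were MRPS12 (0.63), part of the decoding centre, and MRPL58 (0.52), which releases peptides from stalled ribosomes. MRPS12 and MRPL58 were picked outside the rule for naming genes. With the empty vector MRPS27, MRPS17, MRPS12 and MRPL58 were at 0.24, 0.30, 0.41 and 0.14, none past the test.

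By symbol, the counts of ΔIDR1b against no ARID1A were as follows. With the empty vector 18 of 48 MRPL genes were lower and 0 higher, and 10 of 29 MRPS genes were lower and 1 higher. With EWS-FLI1 the counts were 13 lower and 3 higher for MRPL, and 9 lower and 10 higher for MRPS. For comparison, 17.9% of all genes tested fell and 18.1% rose past the threshold with EWS-FLI1. Without the fusion these shares were 16.8% and 16.4%. The share of MRPL genes higher with the fusion was thus below that of all genes, and the MRPS share above it. The median log2 fold change was -0.231 and -0.167 for MRPL and 0.05 and 0.059 for MRPS (empty vector and EWS-FLI1). MRPS18A and MRPS30 were then placed in the large subunit, where they are found in the structure, and all other genes were left by symbol. The medians of the large subunit (50 genes) stayed at -0.231 and -0.167 and those of the small subunit (27 genes) at 0.05 and 0.059. The MRPS fold changes were thus spread to both sides of 0, from -2.66 to 0.86 and from -4.51 to 1.09. The difference between the subunits was described and not tested.

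The 46 genes tested that were listed as having a bacterial homologue included 15 lower and 0 higher under the empty vector. With EWS-FLI1 11 were lower and 7 higher (medians -0.136 and -0.077). The list holds MRPS18C but leaves out MRPS18A, although it too is a relative of bacterial S18. Of the 31 genes without a listed homologue 13 were lower and 1 higher, and 11 lower and 6 higher (median -0.167 and -0.197). The 1 higher under the empty vector was MRPS18A, so its place in this set follows from the list. Among all genes 16.8% and 17.9% were lower and 16.4% and 18.1% higher, so the shares of either set higher with EWS-FLI1 are near the background. Of the 4 members tested of the L7/L12 stalk list, MRPL54 was lower under the empty vector (-0.91 ± 0.20, adjusted p = 0.00067) and MRPL11 with EWS-FLI1 (-0.41 ± 0.12, adjusted p = 0.0084). Without the genes with most coding bases shared, 23 of 67 were lower and 1 higher under the empty vector, and 17 lower and 11 higher with EWS-FLI1. Across the 77 genes the log2 fold change had a Pearson r of -0.05 and -0.03 with GC content and of -0.09 and -0.10 with log2 exonic length, as a description.

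The counts depended on libraries and on the correction for length. The empty-vector count of 29 fell to 19 without the second ΔIDR1b library, and the EWS-FLI1 count of 35 fell to 21 without the first library of either group and to 23 without the second library without ARID1A. With trends of length removed the empty-vector split became 8 higher and 21 lower, and with trends of length and GC removed 9 and 26, and the EWS-FLI1 split became 20 and 21. With repeat number as a block inside either vector, the splits were 8 higher and 31 lower, and 16 and 25. DESeq2 gave 8 higher and 22 lower with EWS-FLI1.

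The second comparison set ΔIDR1b against WT, where ARID1A was supplied in both groups. ARID1A RNA was 2608 to 2878 CPM with ΔIDR1b and 1843 to 2291 with WT. FLI1 in the libraries with EWS-FLI1 was 1888 and 1906 CPM with ΔIDR1b and 3675 and 3462 with WT. The loss of IDR1b and these differences in amount cannot be told apart. With the empty vector 36 of 77 genes were lower and 0 higher, against 13.4% and 11.1% of all genes. With EWS-FLI1 16 were lower and 2 higher, against 10.1% and 8.48%. The median log2 fold change was -0.329 and -0.194, against 0.012 and 0.009 for all genes. Under the alternative settings the family median ran from -0.367 to -0.245 and from -0.253 to -0.157. The 14 genes lower with both vectors (38.9% of the 36 and 87.5% of the 16) were MRPL2, MRPL9, MRPL17, MRPL22, MRPL32, MRPL37 and MRPL38, and MRPS2, MRPS5, MRPS22, MRPS26, MRPS30, MRPS34 and MRPS35. The share of all genes lower with both vectors was not computed here either. Both this comparison and the previous one use the same ΔIDR1b libraries.

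MRPS22 was 68.45 and 69.1 CPM with WT against the 39.4 and 42.46 with ΔIDR1b (-0.75 ± 0.13, adjusted p = 3.95e-05), and 71.13 and 55.41 against 38.65 and 43.86 with EWS-FLI1 (-0.62 ± 0.13, adjusted p = 0.000682). MRPL38 was 13.24 and 13.89 CPM with WT, and 10.39 and 11.52 with EWS-FLI1, giving falls of -0.93 ± 0.22 (adjusted p = 0.0016) and -1.05 ± 0.23 (adjusted p = 0.00118). MRPS5 stood at 42.56 and 53.86 CPM with WT, and 48.4 and 42.53 with EWS-FLI1 (-0.71 ± 0.14 and -0.88 ± 0.14, adjusted p = 0.000425 and 5.79e-05). In these 3 genes the groups did not overlap. The call of MRPL38 under the empty vector was lost without the second ΔIDR1b library (adjusted p = 0.0917).

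MRPL2, the counterpart of bacterial L2 next to the peptidyl transferase centre, was 12.2 and 10.16 CPM with WT against 5.995 and 8.078 with ΔIDR1b, and 13.62 and 10.61 against 5.238 and 9.453 with EWS-FLI1. Its falls of -0.67 ± 0.25 and -0.72 ± 0.24 were just past the threshold (adjusted p = 0.0455 and 0.0359). They were lost under 8 and 4 of 21 alternatives, with an adjusted p of up to 0.329 and 0.468. MRPS35, a small-subunit component that bacteria lack, was described after its values were seen. It was 73.28 and 72.01 CPM with WT, 58.51 and 58.41 without ARID1A and 47.59 and 51.18 with ΔIDR1b under the empty vector. It was lower than with WT, with log2 fold changes of -0.56 ± 0.13 (adjusted p = 0.00135) under the empty vector and -0.45 ± 0.13 (adjusted p = 0.0105) with EWS-FLI1, and against no ARID1A its change of -0.24 ± 0.13 did not pass the test (adjusted p = 0.144) under the empty vector. MRPL24 (0.42 ± 0.15, adjusted p = 0.041) and MRPS17 (1.10 ± 0.30, adjusted p = 0.0093) were the 2 genes higher with EWS-FLI1, and under the empty vector they were at -0.06 and 0.21.

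In ΔIDR1b against WT the median of either subunit was below 0. With the empty vector 28 of 48 MRPL and 8 of 29 MRPS genes were lower (medians -0.374 and -0.167), and with EWS-FLI1 8 of each were lower (medians -0.224 and -0.165), with 1 of each higher. For comparison, 13.4% of all genes tested fell and 11.1% rose past the threshold without the fusion. With the fusion these shares were 10.1% and 8.48%. Of the 30 MRPL genes listed as having a bacterial homologue, 17 were lower under the empty vector, and all 30 had a log2 fold change below 0. With EWS-FLI1, 5 were lower and 1 higher, and 10% had a log2 fold change above 0. The shares above 0 were 6.25% and 14.6% for all 48 MRPL genes and 50.9% and 50.7% for all genes tested. Values below 0 were thus not particular to the genes with a listed homologue. Without the genes with most coding bases shared, 30 of 67 were lower under the empty vector, and 12 lower and 1 higher with EWS-FLI1. The empty-vector count rested on single libraries: it was 10 without the first WT library, which stood apart above, 22 without the first and 11 without the second ΔIDR1b library, all of them lower. The EWS-FLI1 count of 18 was 7 without the first ΔIDR1b library and 7 (1 higher, 6 lower) where only the compared groups were fitted. It was 29 (3 higher, 26 lower) with repeat number as a block inside either vector, and 33 (3 higher, 30 lower) with trends of length and GC removed.

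The summed level of the family was lowest with ΔIDR1b. It was 3725 to 3837 CPM in the 4 libraries without ARID1A, 3822 to 4360 with WT and 3199 to 3426 with ΔIDR1b, so the ΔIDR1b libraries did not overlap the others and the first and second ranges overlapped. The MRPL sum exceeded the MRPS sum 1.61 to 1.66 times without ARID1A, 1.64 to 1.73 times with WT and 1.63 to 1.69 times with ΔIDR1b. These ranges overlapped. Summed levels are led by the abundant genes, MRPL37 among them, and are not levels per length.

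The third comparison set WT against no ARID1A. With the empty vector 9 of 77 genes were higher and 1 lower, against 6.5% and 5.19% of all genes, and with EWS-FLI1 10 were higher and 4 lower, against 9.72% and 8.36%. The median log2 fold change was 0.113 and 0.1, against -0.008 and -0.015 for all genes. Under the alternative settings the family median ran from -0.011 to 0.225 and from 0.044 to 0.194, so its sign under the empty vector was not stable. MRPL44, MRPL50, MRPL19 and MRPL28 were higher with both vectors (44.4% of the 9 and 40.0% of the 10), and MRPS24 was lower with both. For all genes the shares called with both vectors were not computed. By symbol 7 MRPL and 2 MRPS genes were higher under the empty vector; with EWS-FLI1 the numbers were 6 and 4. Under EWS-FLI1 the counts are near the background.

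MRPL44, which carries a double-stranded RNA-binding domain and in which mutations cause an infantile cardiomyopathy, was 28.47 and 26.55 CPM without ARID1A and 43.08 and 38.17 with WT, and 25.74 and 27.74 against 40.35 and 35.1 with EWS-FLI1. WT was higher by 0.56 ± 0.14 (adjusted p = 0.00937) and 0.50 ± 0.15 (adjusted p = 0.0159). MRPL50, a component that bacteria lack, was 21.78 and 25.65 against 33.63 and 31.45 CPM, and 24.81 and 25.75 against 37.64 and 32.67 (0.46 ± 0.14 and 0.48 ± 0.14, adjusted p = 0.0348 and 0.0194). In both genes the WT libraries lay above those without ARID1A for each vector. In the ΔIDR1b libraries MRPL44 was 25.95 to 36.38 CPM and MRPL50 22.81 to 28.52, and neither differed from no ARID1A past the test.

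MRPL19 and MRPL28 are counterparts of bacterial L19 and L28. MRPL19 was 62 and 68.73 CPM without ARID1A and 91.06 and 88 with WT, and 73.99 and 63.43 against 100 and 83.76 with EWS-FLI1 (0.45 ± 0.12 and 0.42 ± 0.12, adjusted p = 0.0122 and 0.014). MRPL28 was 63.71 and 69.55 against 102.7 and 77.39 CPM, and 63.93 and 61.7 against 73.32 and 92.18 (0.43 ± 0.13 and 0.40 ± 0.13, adjusted p = 0.0211 and 0.0268). The groups did not overlap, but the 2 WT libraries of MRPL28 were far apart with either vector. All 8 of these calls were lost under 2 to 7 of 21 alternatives, with an adjusted p of up to 0.463.

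MRPS24 had 23 and 21 counts with WT and 24 and 20 with WT and EWS-FLI1, against the 68, 81, 81 and 54 without ARID1A. The log2 fold changes were -1.75 ± 0.46 and -1.79 ± 0.46 (adjusted p = 0.0107 and 0.00568), and the groups did not overlap. These calls were lost under 3 and 1 of 21 alternatives, with an adjusted p of up to 0.0894 without the second empty-vector library without ARID1A and 0.0962 without the first with EWS-FLI1. MRPL32 (-0.50 ± 0.12, adjusted p = 0.0031), MRPL46 (-0.54 ± 0.18, adjusted p = 0.038) and MRPL22 (-0.39 ± 0.13, adjusted p = 0.034) were the other genes lower with WT and EWS-FLI1. With the empty vector they were at -0.29, -0.46 and -0.16, none past the test.

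These counts moved with single libraries and settings. The empty-vector count of 10 was 0 without the first WT library and 6 without the second, 5 and 1 without the first and the second library without ARID1A, and 18 without the first or the second WT library with EWS-FLI1. The EWS-FLI1 count of 14 was 4 without the first or the second library without ARID1A, and 5 where only the compared groups were fitted. Without the first WT library with EWS-FLI1 it was split 5 higher and 7 lower. With repeat number as a block inside either vector, 19 were higher and 2 lower, and 19 higher and 7 lower. Upper-quartile factors gave 5 higher and 2 lower, and 7 and 7. With trends of length and GC removed the splits were 18 and 4, and 22 and 6, and with length alone 18 and 4 under EWS-FLI1.

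Setting EWS-FLI1 against its empty vector asks whether the fusion changed the family in each ARID1A state. No gene of the 77 was called without ARID1A, with WT, with ΔIDR1b or on the average of the 3 states by edgeR, where 0.0442%, 0.221%, 0.172% and 0.466% of all genes were called, and DESeq2 called 0 as well. At an unadjusted p under 0.05 there were 1, 1, 4 and 1 genes. The median log2 fold changes of the family were 0.001, -0.053, 0.056 and 0.002. The fold changes ran from -0.298 (MRPL30) to 0.248 (MRPL20) without ARID1A and from -0.432 to 0.234 with WT. With ΔIDR1b they ran from -1.786 (MRPS24) to 0.634 (MRPS17). With repeat number as a block inside either vector, 2 genes were lower on the average.

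The interaction tests asked whether the effect of ARID1A state differed between the vectors. No gene of the family was called by edgeR, or by DESeq2, for WT minus no ARID1A, ΔIDR1b minus no ARID1A or ΔIDR1b minus WT, and 0.0245%, 0.0196% and 0.0% of all genes were. Unadjusted p-values under 0.05 were seen for 2, 3 and 2 genes. The smallest was that of MRPL30 in ΔIDR1b minus no ARID1A, where the log2 difference of 0.59 ± 0.19 had an adjusted p of 1 by edgeR. MRPL30 was higher with ΔIDR1b under EWS-FLI1 (0.41 ± 0.13, adjusted p = 0.016) and at -0.18 ± 0.13 under the empty vector, and 95.3% of its coding bases are shared. A value that misses the threshold does not show that the vectors acted alike, and the amount of FLI1 RNA differed between the WT libraries and the other libraries with EWS-FLI1.

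Other genes of the same machinery were counted from lists. The 5 mitoribosomal proteins with other symbols were DAP3, AURKAIP1, CHCHD1, PTCD3 and GADD45GIP1. Of these, 2 were lower with ΔIDR1b than without ARID1A under the empty vector and 1 with EWS-FLI1 (16.8% and 17.9% of all genes). Against WT 4 and 2 were lower (13.4% and 10.1% of all genes). The 1 of 5 with EWS-FLI1 is near the background. None was higher. PTCD3, a small-subunit component of the pentatricopeptide family, was 181.8 and 193 CPM without ARID1A and 125.5 and 140 with ΔIDR1b, and 178.8 and 189.8 against 131.2 and 127.9 with EWS-FLI1. It fell, with log2 fold changes of -0.50 ± 0.10 and -0.51 ± 0.10 (adjusted p = 0.00032 and 0.00023), and the groups did not overlap. CHCHD1, a small-subunit component, fell under the empty vector (-0.44 ± 0.17, adjusted p = 0.048).

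Of 15 mitochondrial translation factors, 3 were higher and 3 lower with ΔIDR1b than without ARID1A under the empty vector (16.4% and 16.8% of all genes), and 3 higher and 2 lower with EWS-FLI1 (18.1% and 17.9%), so the numbers called are near the background. MTRFR, which takes part in the rescue of stalled mitochondrial ribosomes, rose from 12.86 and 12.49 to 28.15 and 29.02 CPM, and from 11.51 and 12.18 to 33.27 and 31.21 with EWS-FLI1 (1.17 ± 0.17 and 1.44 ± 0.17). SLIRP, the partner of LRPPRC in stabilizing mitochondrial messages, fell from 61.18 and 53.32 to 38.02 and 26.16 CPM, and from 73.39 and 63.34 to 42.26 and 42.89 (-0.84 ± 0.17 and -0.68 ± 0.17). OXA1L, which inserts new mitochondrial proteins into the inner membrane, fell, with log2 fold changes of -0.38 ± 0.11 and -0.34 ± 0.11.

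Of 25 assembly factors and enzymes that modify mitochondrial ribosomal RNA, 9 were higher and 3 lower with ΔIDR1b under the empty vector, and 12 higher and 3 lower with EWS-FLI1, against the same shares of all genes (16.4% and 16.8%, 18.1% and 17.9%). The median was 0.066 and 0.347, against 0.004 and 0.016 for all genes. The difference from the ribosomal proteins was not tested. DDX28, an RNA helicase needed for assembly of the large subunit, rose from 4.312 and 3.291 to 16.3 and 11.8 CPM, and from 4.944 and 4.58 to 16.85 and 17.86 (1.88 ± 0.24 and 1.86 ± 0.23, adjusted p = 1.6e-07 and 1.1e-07). MTG2, a GTPase that associates with the large subunit, rose from 20.74 and 19.44 to 40.14 and 41.32 CPM (1.02 ± 0.17, adjusted p = 1.6e-05) and by 0.86 ± 0.17 with EWS-FLI1. MPV17L2, an inner-membrane protein needed for ribosome assembly, rose by 0.88 ± 0.19 and 1.10 ± 0.19.

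A further list held regulators of nuclear genes for mitochondria, and TFAM, TFB2M and POLRMT, which act in transcription of the mitochondrial genome itself. Of its 11 genes that passed the filter (PPARGC1A did not), 5 were higher with WT than without ARID1A under the empty vector and 6 with EWS-FLI1. Of all genes 6.5% and 9.72% were higher. None of the 11 was lower, where 5.19% and 8.36% of all genes were. With ΔIDR1b 4 were higher and 1 (TFAM) lower, and 6 higher and 0 lower. Of all genes 16.4% and 18.1% were higher, and 16.8% and 17.9% lower. PPARGC1B, a coactivator of mitochondrial genes, was 8.847 and 9.348 CPM without ARID1A, 16.52 and 20.32 with WT and 22.52 and 24.31 with ΔIDR1b under the empty vector. ESRRA, the nuclear receptor it acts with, was 32.49 and 36.72 CPM, then 56.84 and 49.75, then 60.82 and 52.33. MYC was 106.5 and 97.22, then 162.2 and 149.3, then 134.4 and 149. In these 3 genes both rescue states lay above no ARID1A, and ΔIDR1b did not differ from WT past the test with either vector (adjusted p from 0.0596 to 0.89). The factors whose letters were searched were added after the values were seen. Levels of NRF1 (0.36 ± 0.16, adjusted p = 0.08), GABPA (0.11 ± 0.13, adjusted p = 0.55) and YY1 (-0.09 ± 0.09, adjusted p = 0.5) did not pass the test between ΔIDR1b and no ARID1A under the empty vector, and NRF1 rose with EWS-FLI1 (0.55 ± 0.16, adjusted p = 0.0058). The part of these levels in the values of the ribosomal protein genes was not tested.

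The promoter letters were set beside the falls with ΔIDR1b as a last description. Of the 20 genes lower with both vectors that have a promoter in the table, 20% held the NRF1 letters, 45.0% ETS and 35.0% YY1. Of the 40 genes lower with neither vector the shares were 5.0%, 40.0% and 32.5%. The NRF1 letters stood in 4 and 2 promoters, MRPL17, MRPL22, MRPL32 and MRPL52 of the former and MRPS18B and MRPS18C of the latter, which were named after their values were seen. The GGAA repeat stood in 5.0% of both.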

How the data were processed

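Per the file headers, the authors deposited a raw count of fragments per gene name for each library, made with featureCounts 2.0.1 from fragments with both ends mapped over GENCODE 41 exons (GRCh38), without strand, and leaving out fragments on several genes or with several alignments. The submitters' processing notes name STAR and SAMtools as well; their versions are not given in the sources used here. Genes were tested from these counts with edgeR 4.0.16 in R 4.3.3: a quasi-likelihood F-test on all 12 libraries with 1 mean per group, TMM factors, genes kept by filterByExpr (minimum count 10, minimum total 15; 20377 of 60645 kept) and Benjamini-Hochberg adjustment over all of them. The biological coefficient of variation was 10.1%. CPM uses TMM-scaled totals, and figures of log2 levels add 0.1. Shared coding bases come from GENCODE 29, promoters from RefSeq.

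The members and the gene lists were chosen with earlier results of these data known. Values in every library are given for members called in the same direction with both vectors, ranked by the mean absolute log2 fold change: up to 6 in each direction for ΔIDR1b against no ARID1A and up to 4 for the other state comparisons. The 3 highest and 3 lowest members per length, and up to 3 called genes of each other list by adjusted p, were also named. Most other names belong to a complete list or a count of 5 or fewer, or mark the end of a range. The rest, MRPS11, MRPS12 and MRPL58 among them, lie beyond this rule. The repeat numbers carry no stated meaning. Over 10695 genes with a mean of at least 10 CPM, same-numbered libraries of different states deviated together within the empty vector (r 0.104 to 0.194) and within EWS-FLI1 (r 0.153 to 0.412), and not across vectors (all 9 negative, lowest -0.223), so a block was tried within each vector; this pairing comes from the values. Alternatives were other scaling factors, filters, DESeq2 1.42.0, trends of length and GC, fits of the compared groups only, blocks and leaving out each library. The script was run on simulated counts in which all genes had the same spread and known changes were set only in the ΔIDR1b libraries. That run does not check the calls against the differences between libraries seen here. Scores over the members were not tested.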

Additional observations from a re-analysis of the deposited data

How the results depend on the processing

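The number of genes of the family called changed by over 1.5 times as follows, with higher and lower calls in that order. WT against no ARID1A under the empty vector (10) gave 21 (19 and 2) with a replicate block within each vector, 18 (17 and 1) with the length trend removed and 22 (18 and 4) with length and GC trends removed. With EWS-FLI1 (14) it was 26 (19 and 7), 22 (18 and 4) and 28 (22 and 6), and 5 (3 and 2) with the compared groups only. For ΔIDR1b against WT with EWS-FLI1 (18) it was 29 (3 and 26) with that block, 33 (3 and 30) with length and GC trends removed and 7 (1 and 6) with the compared groups only. On the average of the 3 states, EWS-FLI1 against the empty vector gave 2 (0 and 2) with that block instead of 0. The cause of these changes was not tested. The pairing by repeat number moved no other total of called genes by over 1.5 times, but ΔIDR1b against no ARID1A under the empty vector went from 1 and 28 to 8 and 31 with that block, and a single replicate block over all libraries gave 9 and 1, 10 and 4, 2 and 27, 13 and 23, 0 and 36, and 2 and 17 for the 6 comparisons in their order in the plots by vector. Leaving out each library gave 0 to 18 and 4 to 20 genes for WT against no ARID1A (empty vector, EWS-FLI1), 19 to 40 and 21 to 41 for ΔIDR1b against no ARID1A, 10 to 37 and 7 to 22 for ΔIDR1b against WT, and 0 to 0 for the 7 others; a group left with 1 library was assumed to vary like the rest. MRPL2, MRPL19, MRPL28, MRPL32, MRPL38, MRPL44, MRPL46, MRPL50, MRPS5, MRPS18A, MRPS22 and MRPS24 kept their sign in all 21 alternatives in the comparisons for which the rule named them; other genes were not followed. The compared-groups fit was not run for the average. With 2 libraries a group, and low counts in MRPS24, small changes were not detectable.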
